A study of Mus musculus with 6 samples.

Results

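The 10 transcription factors described here hold mouse embryonic stem cells in, or are typical of, the naive pluripotent state: *Pou5f1* (also called Oct4), *Nanog*, *Klf2*, *Klf4*, *Klf5*, *Esrrb*, *Tfcp2l1*, *Prdm14*, *Sall4* and *Nr0b1*. They were chosen by name, and their introns and transcripts were found by gene identifier. The factors accounted for 41 of the 85015 introns listed in any library and for 32 of the 116873 transcripts in the long-read tables. All 41 introns were listed in all 4 total RNA libraries and were tested, among 63309 introns in all. The cells were E14, a line of mouse embryonic stem cells on a 129/Ola background, grown with serum and LIF. At 24 hours after seeding they were transfected, using a lipid reagent, with siRNA against *Son* or with control siRNA, and RNA was taken 24 hours later. Ribosomal RNA was depleted, and total RNA was sequenced in 2 control and 2 *Son* siRNA libraries, called control 1 and 2 and knockdown 1 and 2. Nanopore cDNA was sequenced in 1 library of each kind. Nothing in the labels says that libraries of a group came from separate cultures, so the p-values measure only the spread between these libraries.

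Pluripotency factors bind together at the enhancers of one another's genes, and this mutual activation keeps the network running while LIF signalling, through STAT3, feeds into it. POU5F1 and NANOG form the core with SOX2. The Krüppel-like factors, ESRRB and TFCP2L1 link LIF and kinase signals to that core, and several of them can replace one another in part. SON is a large protein of nuclear speckles that holds splicing factors together. It is known to promote removal of introns with weak splice sites, and its loss in human embryonic stem cells is known to impair splicing of pluripotency genes. The comparison of *Son* siRNA with control siRNA addresses how splicing depends on SON in these cells.

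*Son* itself was lower in the knockdown, with 283 and 314 spliced reads, as CPM (reads scaled to a fixed library total), in the controls, then 93.5 and 102 in the knockdown libraries (log2 fold change −1.61, SE 0.09, edgeR adjusted p = 3.72e-10). The long-read libraries held 217 *Son* reads in the control and 37 in the knockdown. Total RNA libraries held 10556187 to 16012286 split reads at 5′ junctions, and both libraries numbered 2 were the shallower of their group. The long-read libraries held 3080426 control and 1874851 knockdown reads. Of 10 embryonic stem cell markers, 9 had listed introns and *Sox2*, whose gene has a single exon, had none. Of markers of other cells, none of 4 for mesoderm, 3 of 7 for trophectoderm and 2 of 6 for fibroblast feeders were listed, beside 7 of 9 for primitive endoderm, 3 of 4 for neuroectoderm and 3 of 6 for primed epiblast. The unlisted ones included *Cdx2*, *Elf5*, *Sox17*, *Foxa2*, *Sox1* and *Col1a1*, and the summed levels of the listed ones are given with the spliced reads below. A gene without an intron cannot be listed, so an unlisted marker is not by itself a sign of missing expression.

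One intron of the set passed the test for a change in splicing. The last intron of *Pou5f1*, intron 4, was spliced less completely in the knockdown, and the exon ends that splicing joins there are shown to identify it. The sequences are 30 bases of exon on each side of the junction in the GENCODE M21 transcripts (GRCm38, the C57BL/6J reference, not E14). Capitals mark the last 2 bases of the upstream exon and the first base of the downstream exon. The other junctions of *Pou5f1* and the short introns of *Tfcp2l1* and *Klf4* are shown for comparison.

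Pou5f1 intron 4: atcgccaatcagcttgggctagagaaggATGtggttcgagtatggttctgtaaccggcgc

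Pou5f1 intron 3: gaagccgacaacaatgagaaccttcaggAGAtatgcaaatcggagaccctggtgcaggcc

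Pou5f1 intron 2: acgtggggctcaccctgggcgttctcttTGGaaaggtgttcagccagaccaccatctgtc

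Tfcp2l1 intron 9: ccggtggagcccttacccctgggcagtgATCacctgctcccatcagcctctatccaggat

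Klf4 intron 3: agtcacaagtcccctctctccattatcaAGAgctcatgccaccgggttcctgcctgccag

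The exon before *Pou5f1* intron 4 ends in AT, and so does the exon before *Tfcp2l1* intron 9. Exons in front of mouse introns most often end in AG, the letters that pair with U1 snRNA. That ending preceded 27 of the 41 introns of the set (65.9%), 57.6% of all tested introns with a matched transcript and 53% of those called less spliced. A last base of G preceded 87.8% of the introns of the set, 81.3% of all and 82.0% of those called less spliced. These letters describe the exon ends only, since sequence within the introns was not used here.

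*Pou5f1* encodes the POU factor without which embryonic stem cells lose their identity. Its intron 4 lies at chr17:35821037-35821184 on the plus strand of GRCm39, within the coding sequence of transcript ENSMUST00000025271, and is 148 nt long. The exon after it opens within the part that encodes the POU homeodomain. Splicing efficiency, the fraction of split reads among all reads at both junctions of an intron, was 0.980 in control 1 and 0.980 in control 2. It was 0.956 in knockdown 1 and 0.951 in knockdown 2, so the knockdown libraries lay below both controls while most transcripts were still spliced. The odds of an unsplit read were higher in the knockdown by 1.27 on the log2 scale (SE 0.22, edgeR quasi-likelihood adjusted p = 3.56e-05 over all introns). Of all tested introns, 1.71% were called less spliced and 0.0442% more spliced. Among introns of at most 200 nt, like this one, 7.42% were called less spliced, against 0.669% of longer introns.

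The larger change in unsplit reads was at the 3′ junction of intron 4. At the 3′ junction, 220 unsplit and 12634 split reads were counted in control 1 and 149 and 8356 in control 2. The knockdown libraries had 668 unsplit and 11205 split reads there in knockdown 1, and 442 and 6971 in knockdown 2. That corresponds to 17.4 and 17.8 unsplit per 1000 split reads in the controls, then 59.6 and 63.4 in the knockdown, with a wide gap between the groups. The 5′ junction moved less, from 22.6 and 23.0 unsplit per 1000 split reads to 32.5 and 39.6, and the groups did not overlap there either. Within a library, the 3′ junction had 0.769 and 0.776 unsplit reads for each one at the 5′ junction in the controls, then 1.84 and 1.60 in the knockdown.

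The other listed introns of *Pou5f1* did not follow. Intron 3, of 442 nt, had efficiencies of 0.993 and 0.989 in the controls, then 0.993 and 0.992 in the knockdown (log2 odds −0.20, edgeR adjusted p = 0.928). Intron 2, of 184 nt and so also short, stayed between 0.990 and 0.991 in all 4 libraries (log2 odds −0.07, edgeR adjusted p = 0.987). The odds of an unsplit read at intron 4 were 2.52 and 1.92 times those at introns 2 and 3 together in the same library for the controls, and 5.85 and 5.95 times in the knockdown. Split reads at the 5′ junction of intron 4 were 0.994 and 0.983 of those of intron 3 in the controls, 0.962 in knockdown 1 and 0.852 in knockdown 2.

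**Figure D1:**
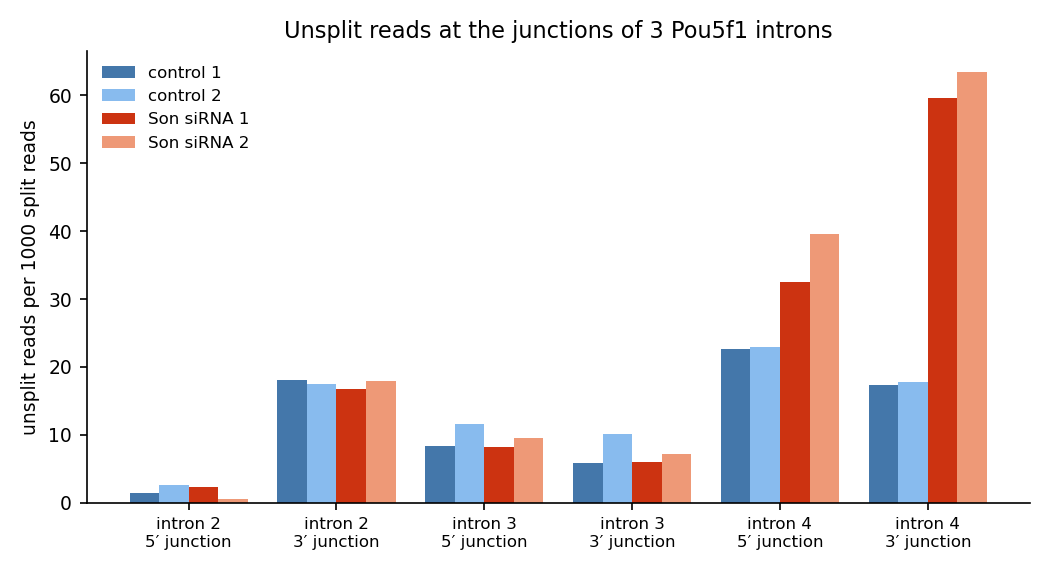
Unsplit reads per 1000 split reads (vertical axis) at the 5′ and 3′ junctions of introns 2, 3 and 4 of *Pou5f1* (horizontal axis), 1 bar per total RNA library, controls in blue and *Son* siRNA in red. The 3′ junction of intron 4 rises from 17.4 and 17.8 to 59.6 and 63.4, while introns 2 and 3 show no such gap.

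The call of intron 4 held with each library left out in turn (edgeR adjusted p between 1.27e-05 and 0.0295) and for the 3′ junction alone (log2 odds 1.80, edgeR adjusted p = 1.58e-06). It was lost for the 5′ junction alone (log2 odds 0.65, edgeR adjusted p = 0.464), with DESeq2 (1.27, adjusted p = 0.0654) and with limma (1.27, adjusted p = 0.486), which called no intron at all. An antisense gene, *Gm19553*, overlaps *Pou5f1*, and its own intron spans introns 3 and 4. It was listed in knockdown 1 alone, with 4 split reads at its 5′ junction and 17423 unsplit ones, which lie in the last exon of *Pou5f1*. Reads of *Pou5f1* and of its antisense partner could therefore not be told apart there, and the part of antisense RNA in the change was not tested. Intron 3 of *Pou5f1* lies within the same antisense intron, and its unsplit reads at the 3′ junction were 5.93 and 10.2 per 1000 split reads in the controls, then 6.04 and 7.13 in the knockdown.

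Summed over its introns, *Pou5f1* was also the only gene of the set called with a lower splicing efficiency per gene by edgeR without a replicate block. The values were 0.987 and 0.986 in the controls, then 0.977 and 0.976 in the knockdown (log2 odds 0.79, SE 0.20, edgeR adjusted p = 0.00259), where 6.98% of all genes were called lower and 0.128% higher. *Klf2* (0.972 and 0.965, then 0.955 and 0.960) and *Klf4* (0.939 and 0.940, then 0.935 and 0.903) were lower in both knockdown libraries as well but were not called. The share of all genes lower in both knockdown libraries on this measure is not given here. Of the other 9 genes, the smallest edgeR adjusted p was 0.397 (*Klf2*). This call rested on all libraries but one: the edgeR adjusted p was 0.357 without control 1, 0.0726 without control 2, 0.115 without knockdown 2 and 0.0420 without knockdown 1, and 0.512 for the 5′ junction alone.

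No other intron of the set passed the threshold, and none of the 41 was called more spliced. At an unadjusted p under 0.05 there were 3 introns of the set, against 9.72% of all tested introns. Beside *Pou5f1* intron 4, they were introns 5 and 9 of *Tfcp2l1*, named here after their values were seen. Efficiency was lower in both knockdown libraries than in both controls for 14 of the 41 introns, where the share over all introns was 24.3%. It was higher in both for 4, against 13.1% over all introns, and the groups overlapped for 23. The median log2 odds was 0.05 in the set and 0.12 over all introns, and 22 introns of the set lay above 0 and 19 below. With split and unsplit reads scaled separately, all introns shifted down by 0.15 (median −0.03), and 16 introns of the set lay above 0 and 25 below.

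Control efficiency was high in the set. The median over its introns was 0.963 and 0.959 in the controls, then 0.954 and 0.957 in the knockdown, beside 0.939 and 0.931 and then 0.933 and 0.922 for all tested introns. The difference in the set, −0.00553 between means of 0.961 ± 0.00261 (SD, n = 2) and 0.956 ± 0.00219 (SD, n = 2), gave p = 0.33 in an exact permutation test (two-sided), the lowest value possible with 2 against 2. The introns ran from 90 to 17991 nt with a median of 1417 nt, and 4 were of at most 200 nt. By region, 36 lay in coding sequence, 1 in a 5′ UTR and 4 in noncoding transcripts.

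**Figure D2:**
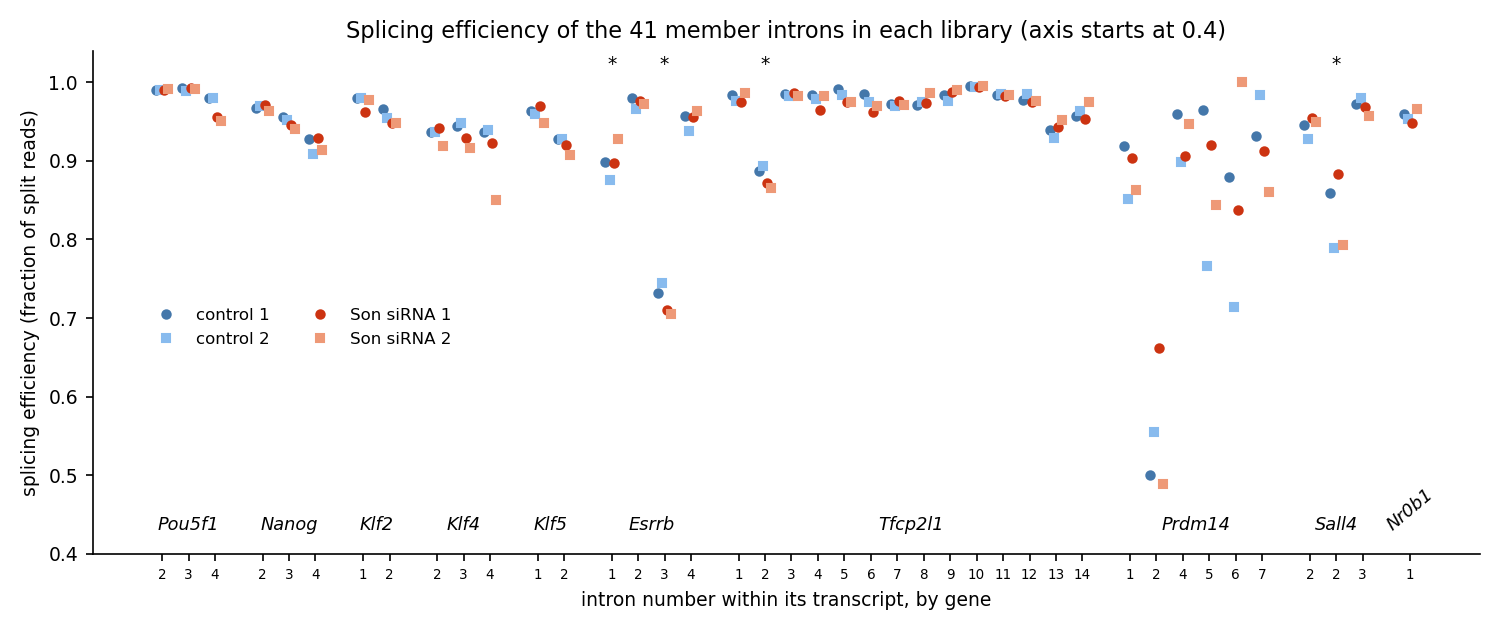
Splicing efficiency (vertical axis, fraction of split reads, starting at 0.4) of the 41 introns by gene and intron number (horizontal axis), 1 point per total RNA library; intron numbers follow the transcript each intron belongs to, and asterisks mark the 4 introns split mainly at one end. *Pou5f1* intron 4 shows a tight gap between the groups, and the *Prdm14* introns scatter within groups.

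**Figure D3:**
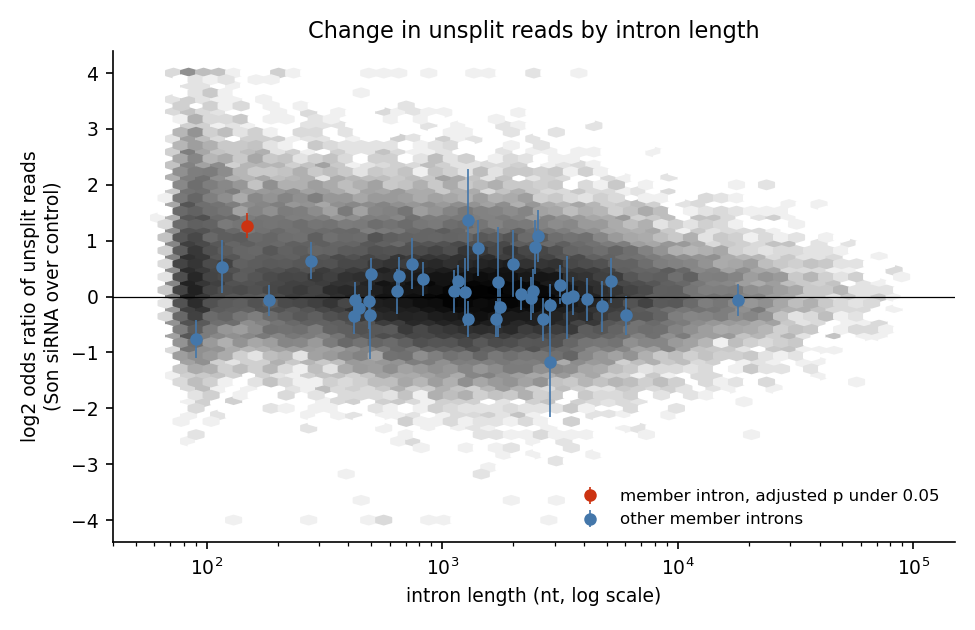
Log2 odds ratio of unsplit reads, *Son* siRNA over control (vertical axis, values of more than 4 in size drawn at that limit), by intron length in nt (horizontal axis, log scale); grey cells hold all tested introns, darker where more introns lie, and points with 1 standard error are the introns of the set. *Pou5f1* intron 4 (red, 148 nt, 1.27) is the only called intron, and the shorter introns of *Klf4* (116 nt) and *Tfcp2l1* (90 nt) lie on opposite sides of 0.

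*Nanog* encodes the homeodomain factor that lets embryonic stem cells renew themselves with less LIF. Its least spliced listed intron, intron 4 (chr6:122689675-122690100), had efficiencies of 0.928 and 0.908 in the controls, then 0.929 and 0.914 in the knockdown. The groups overlapped (log2 odds −0.07, edgeR adjusted p = 0.990). Sequence of *Nanog* transcripts recurs at 95% identity or more over at least 150 nt in 57 other genes, among them the processed pseudogene *Nanog-ps1*. Where these matches lie relative to the *Nanog* junctions was not examined, so their part in its counts is uncertain. Counts are also uncertain where genes overlap: *Sall4* shares 293 nt with *Gm14261* on the opposite strand, and *Tfcp2l1* overlaps *Gm23497*, *Gm22094* and *Gm28882*.

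The Krüppel-like factors are zinc finger activators with overlapping functions. Among its listed introns, each had its lowest control efficiency in one that was not called. Listed were 3 of 4 introns of *Klf4*, 2 of 3 of *Klf5* and 2 of 2 of *Klf2*, so unlisted introns may be spliced less. *Klf2* intron 2 (chr8:73074087-73074587) had 0.965 and 0.954 in the controls, then 0.948 and 0.948 in the knockdown, with no overlap (log2 odds 0.40, edgeR adjusted p = 0.775). In *Klf5*, intron 2 (chr14:99539691-99540853) had 0.928 and 0.928, then 0.920 and 0.907, again without overlap (0.28, edgeR adjusted p = 0.898). Both values moved with single libraries: *Klf2* intron 2 had 0.19 without control 1 and 0.61 without control 2, and *Klf5* intron 2 had 0.16 without knockdown 2 and 0.41 without knockdown 1. *Klf4* intron 2 (chr4:55530984-55531629) had 0.937 and 0.937, then 0.942 and 0.919, with the controls between the knockdown values (0.09, edgeR adjusted p = 0.989). Coverage was lowest in *Klf4*, with 420 to 915 junction reads per library at intron 2.

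*Klf4* intron 4 (chr4:55528301-55529717) had the largest difference among the Krüppel-like introns, most of it from 1 library. Its efficiency was 0.937 and 0.940 in the controls, 0.923 in knockdown 1 and 0.850 in knockdown 2, from 207 to 414 junction reads per library. The log2 odds of 0.87 (SE 0.50) did not pass (edgeR adjusted p = 0.632), and were 0.34 without knockdown 2 and 1.42 without knockdown 1. The short *Klf4* intron 3, shown above for its length of 116 nt, had 0.944 and 0.948 in the controls, then 0.929 and 0.916 in the knockdown (log2 odds 0.54, edgeR adjusted p = 0.862).

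*Tfcp2l1*, a factor of the grainyhead family that acts downstream of LIF, had 14 listed introns, the most in the set. Its intron 5 had 0.991 and 0.983 in the controls, then 0.974 and 0.975 in the knockdown (log2 odds 1.09, edgeR adjusted p = 0.332). Intron 9, the shortest of the set at 90 nt, had the opposite sign, with 0.983 and 0.977 in the controls, then 0.987 and 0.990 in the knockdown (log2 odds −0.75, edgeR adjusted p = 0.384). Neither passed the threshold, and the groups did not overlap in either. Intron 9 and *Pou5f1* intron 4 are both short and both preceded by an exon ending in AT. The part of length or of the exon end in either value was not tested.

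The lowest *Tfcp2l1* value belonged to intron 2 of the noncoding transcript Tfcp2l1-202 (chr1:118560124-118565328), with 0.888 and 0.893, then 0.872 and 0.866 (log2 odds 0.29, edgeR adjusted p = 0.946). It is one of 4 introns of noncoding transcripts in the set whose split reads at one junction outnumber those at the other by at least 10 times, so that their efficiency sets unsplit reads of both junctions against split reads of mainly 1. The rest of these 4 were introns of Esrrb-205 and Sall4-205. *Esrrb*, an orphan nuclear receptor, had its lowest value in intron 3 of Esrrb-205 (chr12:86553285-86556435), with 0.732 and 0.744 in the controls, then 0.710 and 0.706 in the knockdown (log2 odds 0.22, edgeR adjusted p = 0.961). *Sall4*, a zinc finger factor that partners POU5F1, had its lowest in intron 2 of Sall4-205 (chr2:168598721-168603468), with 0.859 and 0.789, then 0.883 and 0.793 (log2 odds −0.17, edgeR adjusted p = 0.978).

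*Prdm14*, a PR-domain factor that restrains FGF signalling and DNA methylation, was the least covered, with 28 to 218 junction reads per intron and library. Intron 7 (chr1:13184712-13186003) had 0.932 and 0.984 in the controls, then 0.912 and 0.860 in the knockdown from 50 to 88 reads. The groups did not overlap, but the log2 odds of 1.37 (SE 0.92) did not pass (edgeR adjusted p = 0.739) and ranged from 0.75 to 2.79 with single libraries left out. Intron 1, in the 5′ UTR (chr1:13196081-13197333), had 0.919 and 0.852, then 0.904 and 0.863 (log2 odds 0.09, edgeR adjusted p = 0.993). At this depth a change of the size seen at *Pou5f1* intron 4 was not detectable in *Prdm14*. Precision was also lower in other genes than at *Pou5f1* intron 4 (SE 0.22). The SE was 0.41 at *Klf4* intron 2, 0.50 at *Klf4* intron 4, 0.50 at *Tfcp2l1* intron 3 and 0.61 at *Sall4* intron 3. An intron that was not called is therefore not shown to be unchanged. *Nr0b1*, which encodes the orphan nuclear receptor DAX1, has a single intron (chrX:85236581-85238956), with 0.959 and 0.953 in the controls, then 0.948 and 0.967 in the knockdown, and the groups overlapped (log2 odds −0.03, edgeR adjusted p = 0.996).

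The amount of spliced RNA per gene was measured by split reads at 5′ junctions summed over the introns of a gene. In bulk RNA, fewer cells with a transcript and less of it per cell cannot be told apart. *Tfcp2l1* was the one gene of the set that rose, where 1.96% of all genes were called higher and 6.76% lower. It had 816 and 795 CPM in the controls, then 906 and 981 in the knockdown, so both knockdown libraries lay above both controls (log2 fold change 0.23, SE 0.07, edgeR adjusted p = 0.0354). The adjusted p was 0.0607 with DESeq2 and, with edgeR, 0.342 for the best covered intron alone, 0.371 without control 1 and 0.542 without control 2. It was 2.88e-08 without knockdown 1 and 0.00374 without knockdown 2.

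No gene of the set was called lower with edgeR, and none was lower at an unadjusted p under 0.05. *Pou5f1* had 1983 and 1997 CPM in the controls, then 1890 and 1830 in the knockdown (log2 fold change −0.10, SE 0.06, edgeR adjusted p = 0.411). *Nanog* had 254 and 246, then 237 and 208 (−0.17, SE 0.08, edgeR adjusted p = 0.255). Both genes were thus lower in both knockdown libraries, by less than the test could call. *Klf2* had 233 and 233, then 228 and 202 (−0.11, edgeR adjusted p = 0.485), and *Klf4* had 55.4 and 56.8, then 54.4 and 40.04 (−0.24, edgeR adjusted p = 0.321).

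In these 4 genes the lower value was always that of knockdown 2, the library in which *Klf4* intron 4 also stood apart. Without knockdown 1, all 4 were called lower, *Klf4* by −0.49 (edgeR adjusted p = 0.000869), *Nanog* by −0.26 (0.000997), *Pou5f1* by −0.12 (0.0142) and *Klf2* by −0.21 (0.0160), with the lone knockdown library assumed to vary like the controls. Without knockdown 2 none of them was, with −0.04 for *Klf4*, −0.08 for *Nanog*, −0.07 for *Pou5f1* and −0.03 for *Klf2*, and *Esrrb* was called higher (0.17, edgeR adjusted p = 0.0397).

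The remaining genes showed no common direction. *Klf5* had 249 and 237 CPM in the controls, then 261 and 222 in the knockdown (log2 fold change −0.01, edgeR adjusted p = 0.978). *Esrrb* had 315 and 293, then 342 and 293 (0.06, edgeR adjusted p = 0.749). *Sall4* had 71.8 and 77.4, then 89.0 and 70.1 (0.10, edgeR adjusted p = 0.703), and in all 3 genes the groups overlapped. *Prdm14*, with 19.1 and 13.2, then 17.0 and 11.9 CPM (−0.17, edgeR adjusted p = 0.727), varied more between replicates than between groups. *Nr0b1* was higher in both knockdown libraries, with 40.7 and 39.2, then 41.2 and 47.2, but was not called (0.14, edgeR adjusted p = 0.597).

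Across the set, 4 genes were lower and 2 higher in both knockdown libraries than in both controls, beside 24.6% and 24.0% of all genes. The median log2 fold change was −0.05, with 4 genes above 0 and 6 below, and 0.01 over all genes tested. The summed level of embryonic stem cell markers, which include *Pou5f1*, *Nanog* and *Esrrb*, was 4218 to 4291 CPM in the controls and 3843 to 4143 in the knockdown. Primed epiblast markers had 211 in both controls and 187 to 195 in the knockdown, with *Fgf5*, *Pou3f1* and *Sox3* unlisted. Primitive endoderm markers had 720 to 727 and then 794 to 795, with 7 of 9 listed, and neuroectoderm markers had 72.0 to 75.9 and then 82.4 to 86.1, with 3 of 4 listed. Trophectoderm markers had 31.8 to 42.5 and then 32.8 to 40.3, and fibroblast feeder markers 1.64 to 1.88 and then 1.16 to 2.17, so these groups overlapped. In these sums a gene with many introns weighs more, and values of single primitive endoderm markers are not given here. The part of other cells in the values of the set was not tested.

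**Figure D4:**
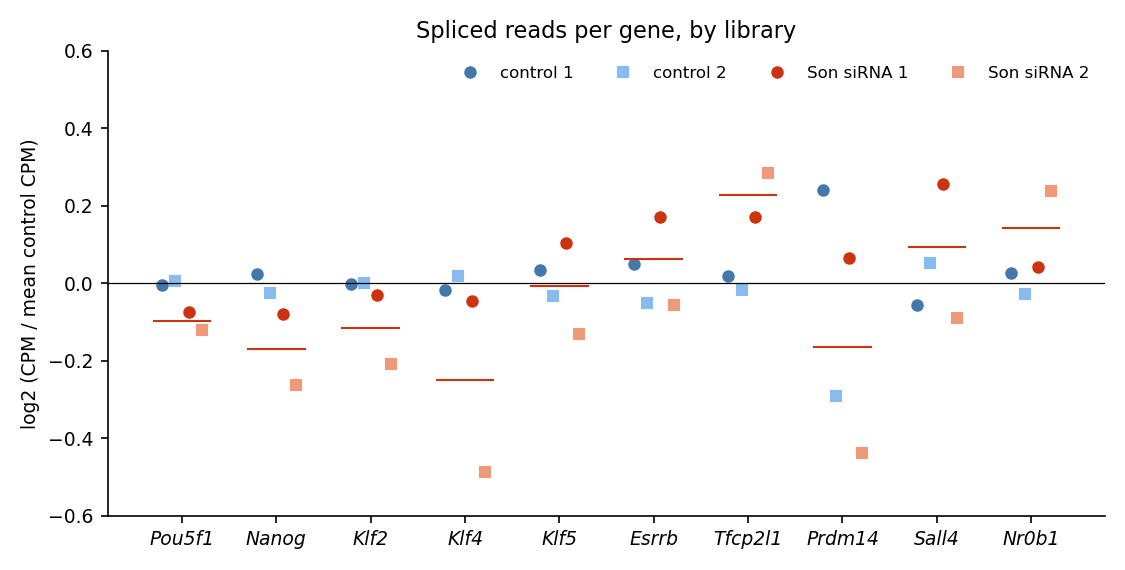
Spliced reads per gene as log2 of CPM over the mean control CPM (vertical axis) for the 10 genes (horizontal axis), 1 point per total RNA library, with a red line at the mean of the *Son* siRNA libraries. *Tfcp2l1* lies above the controls in both knockdown libraries, and *Klf4* lies just below the controls in knockdown 1 (54.4 CPM) and further below in knockdown 2 (40.04 CPM).

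Levels were compared between genes over 1 junction each, the best covered intron, so that genes with many introns do not count more. On that scale *Pou5f1* had 816 and 815 CPM in the controls, far above *Esrrb* with 190 and 168. *Tfcp2l1* (135 and 129), *Klf2* (133 and 129) and *Klf5* (135 and 124) overlapped. Below them came *Nanog* (107 and 104), *Sall4* (58.8 and 62.3), *Nr0b1* (40.5 and 39.0), *Klf4* (27.4 and 29.6) and *Prdm14* (5.71 and 3.07). Neighbours in this order other than those 3 did not overlap between controls. The knockdown values on the same scale were 799 and 789 for *Pou5f1*, 210 and 172 for *Esrrb*, and 6.65 and 3.67 for *Prdm14*.

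The long reads were counted by transcript, with 1 library per group and so no test, and the intervals below cover counting error only. They take each counted read as a separate molecule. Whether a read could count under more than 1 transcript was not examined. Of 32 transcripts of the set, 21 had at least 20 reads over both libraries and 3 had none. One, Klf4-201, was higher in the knockdown library by 2-fold or more, where 3.32% of all transcripts were. None was lower by as much, where 5.8% of all transcripts were. Per gene, the median log2 ratio was 0.04 in the set and −0.01 over all genes.

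*Pou5f1* long reads were 4180 in the control and 2759 in the knockdown, or 1357 CPM (95% Wilson interval 1316 to 1399) and 1472 CPM (1418 to 1527). The log2 ratio was 0.12 (95% exact binomial interval 0.05 to 0.19), opposite in sign to the spliced reads of total RNA. Pou5f1-201, the form annotated with all 4 introns removed, was assigned 99.6% of the control reads and 99.5% of the knockdown reads of the gene. None of its 6 annotated transcripts is a retained-intron form, so a long read that keeps intron 4 has no transcript of its own to be counted under.

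*Klf2* and *Klf4* were higher in the long-read knockdown library and not in the total RNA. *Klf2* had 122 and 127 reads, or 39.6 CPM (33.2 to 47.3) and 67.7 CPM (56.9 to 80.6), with a log2 ratio of 0.77 (0.40 to 1.15). *Klf4* had 35 and 45 reads, or 11.4 CPM (8.17 to 15.8) and 24.0 CPM (17.9 to 32.1), with a ratio of 1.07 (0.41 to 1.76). In total RNA the same genes had log2 fold changes of −0.11 (approximate 95% interval −0.27 to 0.04) and −0.24 (−0.49 to 0.01), whose intervals lie below those of the long reads. *Klf5* went the other way, with 325 and 139 long reads and a log2 ratio of −0.51 (−0.81 to −0.22), beside −0.01 (−0.17 to 0.16) in total RNA. The difference between the assays was not tested, since the long-read interval leaves out the variation between libraries.

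For the other 6 genes, the long-read interval included 0. The share of all genes whose interval leaves out 0 is not given here, so the number in the set has no background beside it. *Tfcp2l1*, the gene that rose in total RNA, had 371 and 200 long reads and a log2 ratio of −0.17 (−0.43 to 0.08). *Esrrb* had 533 and 314 reads (−0.05, −0.25 to 0.16), *Nanog* 1892 and 1204 (0.06, −0.04 to 0.17), and *Sall4* 275 and 183 (0.13, −0.15 to 0.40). *Nr0b1* had 288 and 177 reads (0.02, −0.26 to 0.29), and *Prdm14* 25 and 13 (−0.20, −1.32 to 0.79), too few to show a change of less than about its interval.

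**Figure D5:**
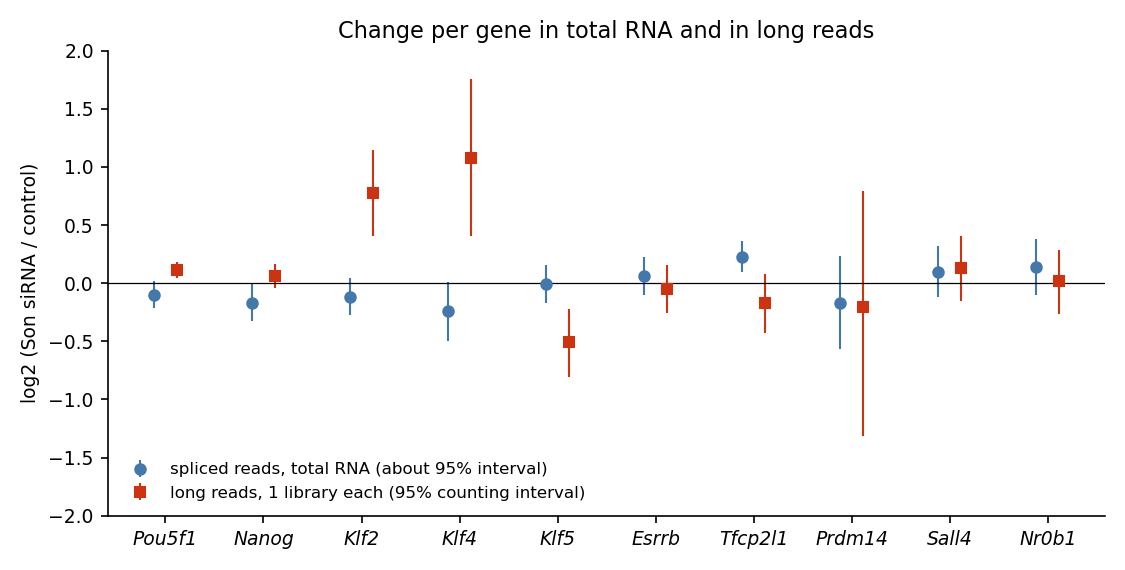
Log2 ratio of *Son* siRNA over control (vertical axis) for the 10 genes (horizontal axis), as spliced reads in total RNA (blue circles, approximate 95% intervals) and as long reads (red squares, 95% counting intervals, 1 library each). *Klf2* (0.77) and *Klf4* (1.07) stand above 0 and *Klf5* (−0.51) below it in the long reads alone.

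Shares of isoforms within a gene had overlapping intervals in the libraries. Nanog-201 held 42.7% of *Nanog* long reads in the control (95% Wilson interval 40.5 to 44.95) and 44.3% in the knockdown (41.5 to 47.1), with Nanog-202 at 29.6% and 27.2% and Nanog-203 at 27.7% and 28.6%. Esrrb-204 held 40.5% and 42.0% of *Esrrb* reads, Esrrb-203 39.4% and 43.0%, and Esrrb-201 10.1% (7.85 to 13.0) and 6.69% (4.42 to 10.01). Sall4-201 held 60.4% and 62.3%, Sall4-203 19.3% and 18.0%, and Sall4-202 11.6% and 12.02% of *Sall4* reads. Klf5-201 held 91.1% and 88.5% of *Klf5* reads and Klf5-202 8.92% and 11.5%, while Tfcp2l1-201 held 94.3% and 95.5% and Tfcp2l1-202 5.66% and 4.50% of *Tfcp2l1* reads.

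Of 35 other genes of the pluripotency network, 30 were tested for spliced reads. With edgeR none rose and 1 fell, where 1.96% of all genes were called higher and 6.76% lower, and the median log2 fold change was −0.06. The one that fell was *Fgf4*, the growth factor through which embryonic stem cells prompt their own differentiation. It had 71.9 and 69.1 CPM in the controls, then 58.4 and 48.9 in the knockdown (log2 fold change −0.39, SE 0.11, edgeR adjusted p = 0.0301). The adjusted p was 0.0516 with DESeq2 and, with edgeR, 0.149 for the best covered intron, 0.340 without control 1, 0.182 without control 2, 0.0689 without knockdown 2 and 5.07e-05 without knockdown 1.

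In splicing efficiency, edgeR called 1 of the 30 genes lower and none higher, where 6.98% of all genes were called lower. *Tcf3* had efficiencies per gene of 0.936 and 0.926 in the controls, then 0.889 and 0.870 in the knockdown (log2 odds 0.88, SE 0.23, edgeR adjusted p = 0.00386). The edgeR adjusted p was 0.376 without control 1, 0.0671 without control 2, 0.0961 without knockdown 2 and 0.00592 without knockdown 1. The symbol *Tcf3* is that of the E2A gene, which encodes bHLH factors; the repressor of the pluripotency network once called Tcf3 has the symbol *Tcf7l1*. Both of its called introns are short. Intron 17 (chr10:80248897-80249038, 142 nt) had 0.507 and 0.571 in the controls, then 0.256 and 0.156 in the knockdown (log2 odds 2.17, SE 0.45, edgeR adjusted p = 0.000922). Intron 18 (chr10:80246109-80246231, 123 nt) had 0.773 and 0.772, then 0.441 and 0.383 (2.26, SE 0.51, edgeR adjusted p = 0.00365). They were the only introns that edgeR called among 178 of the list, where 1.71% of all introns were called less spliced. With edgeR, adjusted p for intron 17 was 0.0709 without control 2 and 0.106 at the 5′ junction alone, and for intron 18 it was 0.152 without control 1, 0.0724 without control 2 and 0.244 at the 3′ junction alone. With DESeq2 it was 0.0317 and 0.0619, and with limma 0.3299 and 0.288.

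Of 12 genes that carry LIF and kinase signals into the network, 11 were tested. With edgeR 1 rose and none fell, where 1.96% of all genes were called higher and 6.76% lower, and the median log2 fold change was 0.08. *Stat3*, the factor that LIF activates, had 142 and 144 CPM in the controls, then 178 and 169 in the knockdown, above both controls (0.28, SE 0.08, edgeR adjusted p = 0.0384). The adjusted p was 0.0525 with DESeq2 and, with edgeR, 0.155 for the best covered intron, 0.486 without control 1, 0.403 without control 2, 0.0125 without knockdown 1 and 0.000412 without knockdown 2. None of the 88 introns of these genes was called by edgeR, where 1.71% of all introns were called less spliced and 0.0442% more spliced. Their median log2 odds was −0.10, beside 0.12 over all introns.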

How the data were processed

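Total RNA was measured in 2 samples of each siRNA group and Nanopore cDNA in 1. The authors' SPLICE-q tables, per the labels, hold counts of reads that are split or unsplit at the ends of an intron, and a score, deposited as a fraction from 0 to 1, that equals split reads over all reads. The lowest number of reads at a listed junction was 10. The cDNA tables that the authors deposited hold read counts by transcript. The submitters' processing notes name GRCm39, SAMtools and minimap2 without roles. The aligner of the short reads and whether strand was used are not given in the sources used here. The label of the long-read control names a knockdown sample as starting material, and its treatment label was followed. By that label, the control library held 217 *Son* reads among 3080426 and the knockdown library 37 among 1874851.

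Repeated introns were reduced to 1 entry. Introns listed in all 4 libraries were tested where split and unsplit reads each summed to 10 or more. The test was the quasi-likelihood one of edgeR 4.0.16 (R 4.3.3), with a term per library, for unsplit reads and for unsplit reads in the knockdown. A log2 odds above 0 means more unsplit reads in the knockdown. A read that spans an intron counts at both junctions. Spliced reads per gene used TMM and filterByExpr. P-values were adjusted by Benjamini-Hochberg over all features, with a threshold of 0.05. Long-read ratios had 0.5 reads added to each count and were taken from 20 reads upward. Intervals came from scipy 1.17.1. DESeq2 1.42.0 and limma 3.58.1 were alternatives, beside single junctions, other filters and scalings, a replicate block and each library left out. Gene names, transcripts and exon ends came from GENCODE M21 by identifier. Of the introns compared, 99.8% had the same length there.

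The introns named are those called, those whose groups did not overlap with a mean change of at least 0.05 and at least 50 junction reads in every library, and the least spliced control intron of each gene with such coverage; introns shown by sequence and those at an unadjusted p under 0.05 are named as well. Transcripts named have at least 20 long reads, at most 3 per gene. The genes, lists and rules were chosen with earlier results of these data known.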

Additional observations from a re-analysis of the deposited data

How the results depend on the processing

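Depth limits the *Prdm14* introns most and other introns of the set as well, and 2 libraries per group limit every test. The introns of the set called less spliced went from 1 to 0 with DESeq2, with the 5′ junction alone and with limma, and stayed at 1 with each library left out. Over all introns, 1112 calls became 285 with DESeq2, 322 with the 3′ junction, 232 with the 5′ junction, 0 with limma (6154 introns had an unadjusted p under 0.05 with edgeR) and 171 to 1427 with a library left out. For splicing efficiency per gene, the set had 0 calls with the 5′ junction alone and 0 to 1 with a library left out, and all genes 666 and 180 to 702; separate scaling moved the split from 654 lower and 12 higher to 643 and 99. Higher spliced reads in the set went from 1 to 0 with DESeq2 and with the best covered intron, and to 0 to 2 with a library left out, and lower ones from 0 to as many as 4; all genes went from 826 to 290 with the best covered intron and 381 to 2193 with a library left out. Transcripts at least 2-fold higher fell from 459 to 88, and lower from 801 to 258, with a minimum of 50 reads, and lower ones to 231 with a pseudocount of 5. The higher minimum also left fewer transcripts to compare, so these counts are not shares of the same total. Deviations of same-numbered libraries correlated at 0.04 (spliced reads) and 0.01 (log2 odds). That correlation does not register a shift common to all features, so it cannot settle whether the replicate numbers mark pairs. Median efficiency of all tested introns was lower in library 2 of both groups (0.931 against 0.939 in the controls, 0.922 against 0.933 in the knockdown). With a replicate block, 1018 genes and 2 of the set, *Pou5f1* and *Klf2* (0.47, edgeR adjusted p = 0.0152), were called in splicing efficiency, 1626 introns were called, with 1 of the set (*Pou5f1* intron 4, 1.27), and spliced reads gave 1000 genes, with 1 of the set. Signs changed only for values that were not called. With the 5′ junction alone, log2 odds were 0.40 for *Nanog* intron 4 and −0.74 for *Prdm14* intron 1; with the 3′ junction alone, −0.80 for the Tfcp2l1-202 intron and 0.18 for *Nr0b1*; with separate scaling, −0.0543 for *Klf4* intron 2 and −0.0541 for *Prdm14* intron 1. Spliced reads of *Klf5* were 0.000767 with the best covered intron and 0.0141 without TMM, and of *Prdm14* 0.20 with the best covered intron. With a library left out, log2 odds ran from −0.26 to 0.12 (*Nanog* intron 4), −0.15 to 0.38 (*Klf4* intron 2), −0.45 to 0.53 (*Prdm14* intron 1), −0.66 to 0.32 (the Sall4-205 intron) and −0.40 to 0.27 (*Nr0b1*), and spliced reads from −0.13 to 0.10 (*Klf5*), −0.0578 to 0.17 (*Esrrb*), −0.46 to 0.13 (*Prdm14*) and −0.0865 to 0.26 (*Sall4*). The causes were not tested.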
